A study of Rattus norvegicus with 2 samples.

Results

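Signals of the Wnt and Norrin signalling genes were compared between cultured rat astrocytes with and without 5ppase. The set was a list of 40 genes for ligands, receptors, secreted inhibitors, cytoplasmic transducers, nuclear factors and feedback genes. Each gene was read from the array's probe sets that carry its symbol alone, and the probe set with the highest mean signal of both arrays stood for the gene. Of the 40 genes 35 had such a probe set, among 14218 genes named this way on the array, and Wnt7b, Fzd7, Ror1, Ror2 and Dkk1 had none and were not analysed here. The genes were chosen by pathway with the ratios of 5ppase over control on these arrays already known, among them the low ratio of Ndp, so the ratios below are a description and support nothing by themselves.

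The astrocytes, the main supporting glia of the brain, were cultured from the hippocampus of normal Sprague-Dawley rats at embryonic day 18. The control culture carried a vector that expresses red fluorescent protein alone after an IRES, an internal ribosome entry site, and the 5ppase culture carried the same kind of vector with 5ppase placed before the IRES. The series sets active calcium signalling in the control against its absence with 5ppase, a name that commonly stands for an inositol phosphate 5-phosphatase, which removes the messenger that opens calcium stores. The sources used here do not give the promoter of the vectors, the share of cells that expressed them or the number of animals. There was 1 array per group, so no test could be run, no value carries an error, and the precision is limited by having so few arrays.

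Wnt proteins are secreted, lipid-modified ligands that bind Frizzled receptors together with the co-receptors Lrp5 or Lrp6. Binding halts the destruction of beta-catenin by the Axin and Apc complex, and beta-catenin then acts with Tcf and Lef factors on target genes, whereas other Wnt and Frizzled pairs act through cell polarity or through release of stored calcium. Norrin, the product of Ndp, is not a Wnt but activates the same beta-catenin route through Fzd4, Lrp5 and the tetraspanin Tspan12, and in the retina and brain it is made by glia and acts on the endothelium of blood vessels.

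The stretches of 250 bases before the annotated gene start are shown for Ndp and Wnt2, the ligands with the largest difference in each direction, and for Axin2 and Nkd1, the feedback genes whose stretch held the core letters of the Tcf and Lef site. They come from a table of RefSeq promoters on build GRCr8, in which 25 of the 35 genes were matched, and run 5′ to 3′ on the gene's strand. Capitals mark TCAAAG or its reverse complement CTTTGA.
Ndp: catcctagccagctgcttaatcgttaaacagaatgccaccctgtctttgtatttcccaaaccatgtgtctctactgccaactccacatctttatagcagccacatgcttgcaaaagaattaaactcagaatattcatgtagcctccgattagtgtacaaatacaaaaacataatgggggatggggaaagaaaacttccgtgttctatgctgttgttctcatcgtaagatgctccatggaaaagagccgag
Wnt2: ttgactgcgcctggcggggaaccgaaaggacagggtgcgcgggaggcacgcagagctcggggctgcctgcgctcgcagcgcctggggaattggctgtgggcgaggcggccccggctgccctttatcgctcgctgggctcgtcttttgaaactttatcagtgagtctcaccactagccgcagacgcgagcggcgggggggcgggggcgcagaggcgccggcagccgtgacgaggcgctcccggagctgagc
Axin2: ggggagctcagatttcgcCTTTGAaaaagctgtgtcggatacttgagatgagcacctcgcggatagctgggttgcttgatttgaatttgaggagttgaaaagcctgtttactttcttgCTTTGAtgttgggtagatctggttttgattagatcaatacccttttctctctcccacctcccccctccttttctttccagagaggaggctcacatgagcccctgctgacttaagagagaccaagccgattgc
Nkd1: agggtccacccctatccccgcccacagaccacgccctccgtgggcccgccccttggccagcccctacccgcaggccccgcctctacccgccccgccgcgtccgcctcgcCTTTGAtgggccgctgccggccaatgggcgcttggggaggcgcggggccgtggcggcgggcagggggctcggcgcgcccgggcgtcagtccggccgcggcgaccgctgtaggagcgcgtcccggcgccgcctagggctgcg
They lie at chrX:8379319-8379568 (plus strand) for Ndp, chr4:47340285-47340534 (minus strand) for Wnt2, chr10:94398535-94398784 (plus strand) for Axin2 and chr19:34722847-34723096 (minus strand) for Nkd1. The Axin2 stretch held the letters in 2 places, 232 and 132 bases before the start, and the Nkd1 stretch in 1 place, 141 bases before it. Only these 2 of the 25 stretches held them, beside 13.9% of the 33469 stretches of the same length before all annotated starts. A match of letters is a description and not a binding site. The Axin2 stretch was 47.6% G and C and the Nkd1 stretch 80%, against a median of 51.2% over all stretches.

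Low signals were set to a floor of 62.0, which is the 40th percentile over both arrays together. To be compared, a gene had to exceed that floor on each array and to reach 208, the 60th percentile over both, on 1 of them or both. This held for 20 of the 35 genes and for 8261 genes in all. Of the 15 others, 7 were above the floor on both arrays but dim, 6 were above it on 1 array only, and 2 were under it on both. Among the 20, Ndp, Sfrp1 and Lef1 reached 208 on the control array only, so counts over the 20 describe genes that passed this filter and not the whole list.

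**Figure D1:**
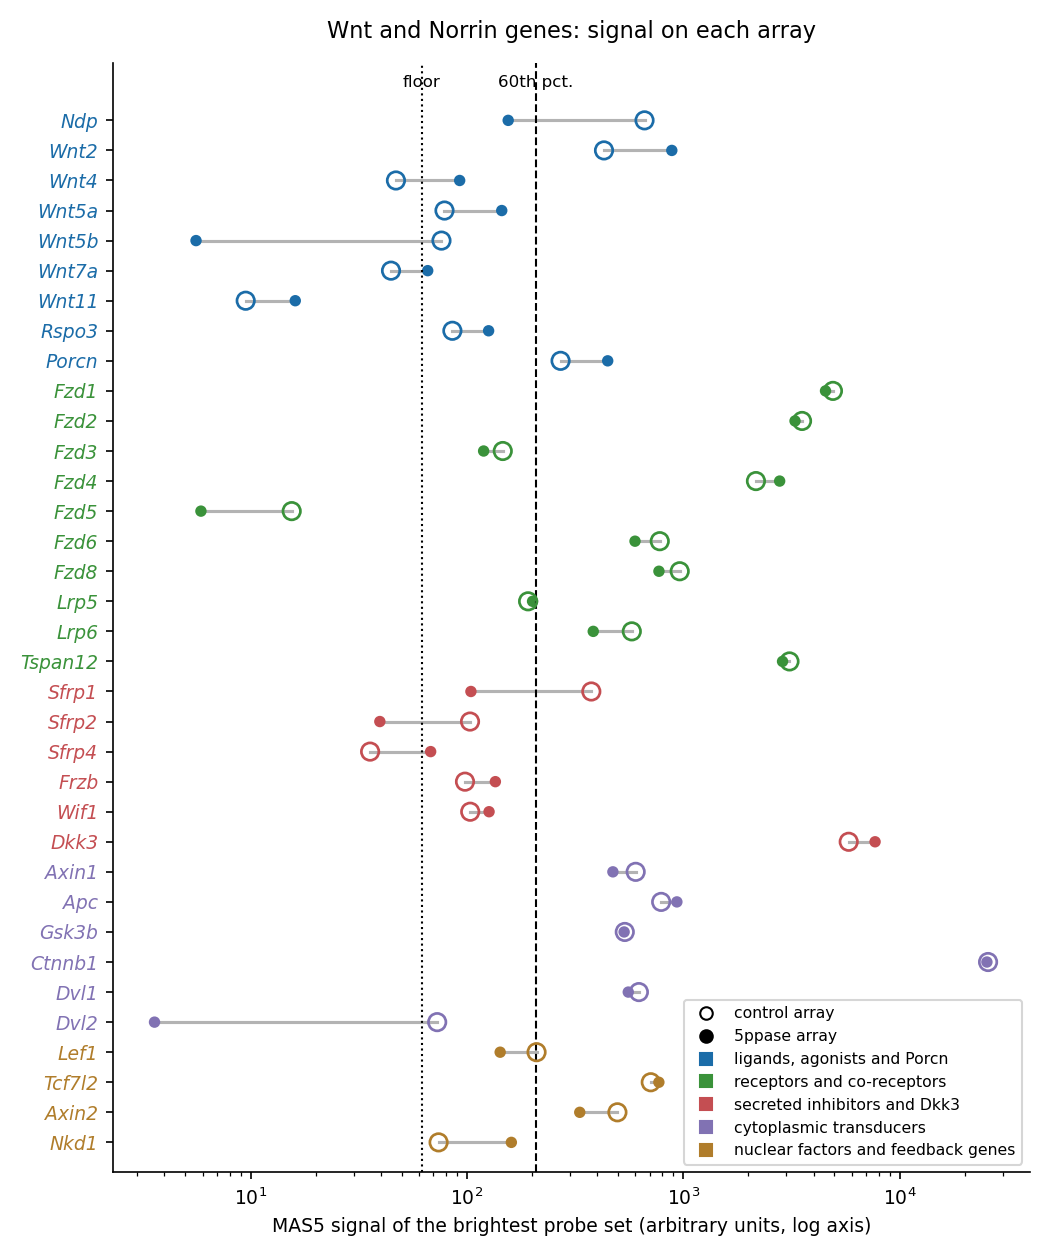
MAS5 signal (arbitrary units, log axis) of the brightest probe set of the 35 genes on the control array (open circles) and the 5ppase array (filled circles), coloured by role, with lines at the floor (62.0) and at the pooled 60th percentile (208). Ndp and Sfrp1 lie far to the left on the 5ppase array, Wnt2 lies to the right, and the circles of most receptors and of Ctnnb1 nearly coincide.

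Of the 20 compared genes 2, Ndp and Sfrp1, were at least 2-fold lower in 5ppase and 1, Wnt2, was at least 2-fold higher. Over all compared genes 1.42% were that much lower and 1.5% that much higher, 2.92% together. At 1.5-fold, Porcn joined Wnt2 upwards (2 genes, background 5.25%) and Lrp6 joined Ndp and Sfrp1 downwards (3 genes, background 5.46%), together 5 of 20 against 10.7%. The other 15 differed by less, as did 89.3% of the table. The median log2 ratio of 5ppase over control was -0.11, against a median of -0.017 over all compared genes. Of the 20 genes 14 were below 0 and 6 above, beside 4306 below and 3955 above among the 8261 compared genes. As a scale for single values, the log2 ratios of probe sets of the same gene differed with an SD of 0.26 per probe set over 1883 genes, which covers probe noise and not differences between cultures.

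**Figure D2:**
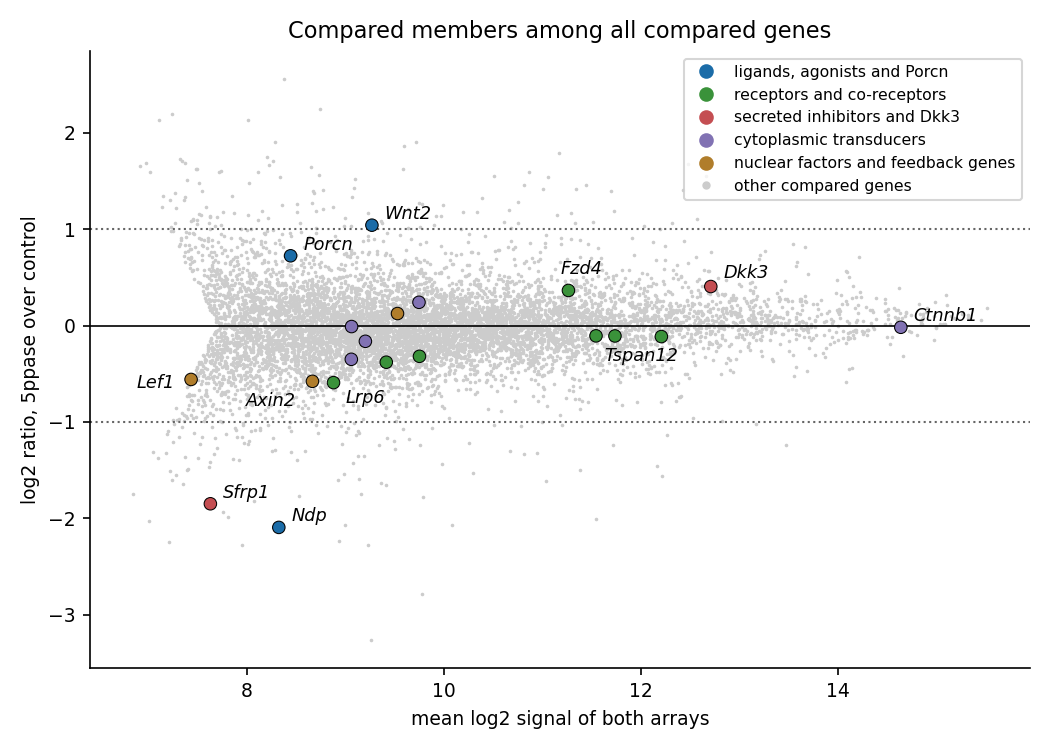
Log2 ratio of 5ppase over control against the mean log2 signal of both arrays for the 8261 compared genes (grey) and the 20 compared Wnt and Norrin genes (coloured by role), with dotted lines at 2-fold. Ndp (-2.09), Sfrp1 (-1.85) and Wnt2 (1.04) lie outside the lines and the other 17 inside them.

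Among the ligands, Ndp was the gene of the list with the lowest ratio. Its signal was 662.2 in control against 155.2 in 5ppase, 4.27-fold lower (log2 ratio -2.09). Its second probe set, made from another sequence entry, gave 400.4 and 94.7 (-2.08), so both probe sets put Norrin message lower in 5ppase by nearly the same ratio. Only 6 of the 8261 compared genes had a lower ratio. In RNA from a whole culture, fewer cells of a type and less RNA per cell cannot be told apart. Markers of astrocytes were also lower in 5ppase. Of 16 listed markers 15 had a probe set and 12 were compared. Of these 10 were lower and 2 higher, beside 4306 lower and 3955 higher among the 8261 compared genes. At least 1.5-fold lower were 8, beside 5.46% of all compared genes. The median log2 ratio of the 12 markers was -0.74. The summed signal of the 15, to which Clu contributes most on both arrays, was 85554 in control and 58193 in 5ppase (log2 ratio -0.56). The 2 higher markers were Gja1 (7282 and 7656, 0.07) and S100b (3483 and 3611, 0.05), both named after their values were seen. Gfap, the intermediate filament of astrocytes, gave 17525 and 7408 (-1.24), and the fatty acid binding protein Fabp7 of immature astrocytes gave 5972 and 1486 (-2.01). Mlc1, a membrane protein of astrocyte end feet, gave 2551 and 1037 (-1.30). The water channel Aqp4 gave 432.3 and 25.1, at least 6.97-fold lower against the floor. Its second probe set, under the floor on both arrays, gave 14.3 and 32.6. The part of the astrocyte marker difference in the Ndp value was not tested.

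Wnt2, a ligand that signals through beta-catenin, had a signal of 430.2 in control against 885.2 in 5ppase, 2.06-fold higher (log2 ratio 1.04). Its second probe set gave 342.1 and 679.5 (0.99), but both probe sets were made from the same sequence entry. Among all compared genes, 110 had a higher ratio. Porcn, the acyltransferase that attaches the lipid to Wnt proteins, gave 271 and 447.5 (0.72), while its second probe set gave 224.7 on both arrays. The probe sets of Porcn thus differed from each other by more than the spread between probe sets. Wls, the carrier that takes Wnt proteins to the cell surface not itself on the list of 40 and named after its values were seen, gave 10551 and 11207 (0.09).

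The other ligands were too dim to be compared. Wnt5a, which acts mostly without beta-catenin and in some cells through calcium, gave 78.8 in control and 144.9 in 5ppase. Rspo3, an R-spondin that strengthens Wnt signals by keeping Frizzled receptors at the surface, gave 85.7 and 126. Wnt4 gave 47 and 92.6 and Wnt7a gave 44.6 and 65.9, both under the floor on the control array. These 4 had the higher signal in 5ppase, as did Wnt11 (9.5 and 16.1), which was under the floor on both arrays. Wnt5b went the other way, with 76.3 in control and 5.6 in 5ppase, close to the floor on the brighter array. At such signals a ratio is not informative, and none was taken.

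Of the 7 compared receptors and co-receptors 6 lay within 1.5-fold, a share near the 89.3% of all compared genes, and their log2 ratios ran from -0.59 to 0.36. Fzd4, the receptor of Norrin, gave 2167 in control and 2789 in 5ppase (0.36), and its second probe set gave 321.5 and 414.2 (0.37). Tspan12, which strengthens Norrin signalling at Fzd4, gave 3098 and 2876 (-0.11). Lrp5, the co-receptor in the same complex, gave 191.8 and 201.2 and was just too dim to be compared. The receptor complex of Norrin therefore had signals within 1.29-fold on both arrays where compared, next to the 4.27-fold lower ligand.

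Fzd1, a receptor for several Wnt proteins, gave 4918 and 4544 (-0.11) and Fzd2 gave 3540 and 3285 (-0.11). Fzd6, which is known for roles in planar polarity, gave 778.8 and 598.5 (-0.38) and Fzd8 gave 963 and 772 (-0.32). All 4 were slightly lower in 5ppase, by less than the SD between probe sets for Fzd1 and Fzd2 and by more than it for Fzd6 and Fzd8. Lrp6, the co-receptor of Wnt ligands, was the lowest of the group, with 578.3 in control and 383.7 in 5ppase (-0.59, 1.51-fold lower), just beyond 1.5-fold. Fzd3, which acts in axon guidance and polarity, was dim at 146.5 and 119.5, and Fzd5 was under the floor on both arrays at 15.5 and 5.9.

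The secreted inhibitors had no common direction. Sfrp1, which binds Wnt proteins outside the cell, stood at 375.9 in control against 104.4 in 5ppase, 3.6-fold lower (log2 ratio -1.85), and 13 of all compared genes had a lower ratio. Its other probe sets gave 71.4 and 18.8 and 85.1 and 3.2, both above the floor in control only. All 3 probe sets thus had the lower signal in 5ppase. Sfrp2, a relative of Sfrp1, gave 103.4 and 39.6, again under the floor in 5ppase, and was too dim to be compared. Its second probe set, under the floor on both arrays, gave 2.7 and 5.9.

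The remaining inhibitors had the higher signal in 5ppase at their brightest probe sets, though only Dkk3 was compared. Dkk3, a Dickkopf relative whose part in Wnt signalling is less settled than that of Dkk1, gave 5816 and 7701 (0.40), with 75.7 and 90.3 at a dim second probe set. Further Dkk3 probe sets, under the floor on both arrays, gave 22.7 and 19.4 and 5.9 and 2.2. Frzb, another Frizzled-related binder of Wnt proteins, gave 98 and 135.4, Wif1, which binds Wnt proteins directly, gave 103.6 and 126.6, and Sfrp4 gave 35.7 and 68. A second Sfrp4 probe set, under the floor on both arrays, gave 31 and 25.9. Frzb, Wif1 and Sfrp4 were not bright enough to be compared.

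**Figure D3:**
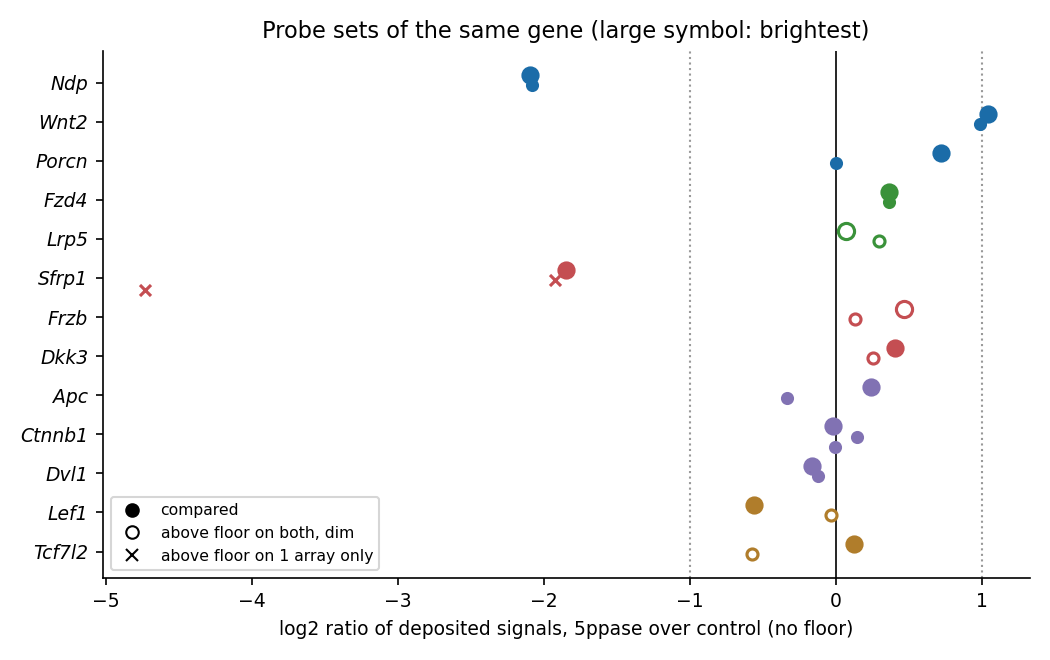
Log2 ratio of the deposited signals, 5ppase over control and with no floor, for each probe set of the genes that had more than 1 above the floor on at least 1 array. Large symbols are the brightest probe set, filled circles were compared, open circles were dim on both arrays and crosses were above the floor on 1 array only. The probe sets of Ndp, Wnt2 and Fzd4 nearly coincide, and those of Porcn, Apc and Tcf7l2 do not.

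Of the cytoplasmic transducers, Ctnnb1 and Gsk3b were close to equal. Ctnnb1, beta-catenin itself, stood at 25630.1 in control against 25314.5 in 5ppase (log2 ratio -0.018), and its next probe sets gave 9542 and 10545 (0.14) and 1289 and 1284 (-0.0053). Gsk3b, the kinase that marks beta-catenin for destruction, gave 536.7 and 532.9 (-0.01, but 0.022 under quantile normalization and 0.032 with a loess trend removed). Axin1, the scaffold of the destruction complex, gave 602.7 and 472.9 (-0.35). Apc, its partner, gave 790.4 and 934.3 (0.24), whereas the second probe set read 306.9 and 243 (-0.34), so no direction can be given for it. Dvl1, which relays the signal from Frizzled, gave 623.7 and 557 (-0.16) and 560.3 and 514.2 (-0.12) at its second probe set. Dvl2 gave 72.9 and 3.6 and was too close to the floor to be compared. All 5 compared genes lay within 1.5-fold, as did 89.3% of all compared genes.

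Of the 3 compared nuclear factors and feedback genes, Axin2 and Lef1 were lower in 5ppase. Tcf7l2 was higher by less than the SD between probe sets. Axin2, a negative regulator that Wnt signalling itself switches on in many tissues, gave 496.3 in control and 332.4 in 5ppase at its only probe set (log2 ratio -0.58, 1.49-fold lower), just short of 1.5-fold. Lef1, a nuclear partner of beta-catenin and often its target, gave 209.9 and 142.5 (-0.56), and a second, dim probe set read 104 and 101.8 (-0.031). Nkd1, a feedback inhibitor that binds Dishevelled, had the opposite order, with 74 and 160.5 at its brightest probe set, which was too dim to be compared. Its other probe sets, under the floor on both arrays, gave 51.2 and 9.8 and 3.8 and 20. Axin2 and Nkd1, the genes whose upstream stretches held the Tcf and Lef letters shown above, thus had opposite orders of signal at their brightest probe sets. Tcf7l2, the other Tcf factor of the list, gave 707.6 and 771.4 (0.12), with 99.1 and 66.6 at its second probe set.

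The wider pathway was described by 6 further lists with 92 genes, for other ligands, receptors, inhibitors, cytoplasmic and nuclear factors and planar polarity. Of 74 genes on the array 51 were compared, and 45 of these lay within 1.5-fold. The genes at least 2-fold apart were 2, both lower in 5ppase, against 1.42% of all compared genes. Apcdd1, a membrane-bound inhibitor of Wnt signalling and one of its targets, gave 770.6 and 382.6 (log2 ratio -1.01), and Celsr2, an atypical cadherin of planar polarity, gave 304.4 and 151.7 (-1.005). The median over the 51 was -0.056. The cytoplasmic list (13 compared genes) and the nuclear list (15) had no gene beyond 1.5-fold, beside 10.7% of all compared genes.

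Some genes of these lists below the 2-fold bound are named after their values were seen. Adgra2 and Reck, which together form the receptor partner for Wnt7 ligands on brain endothelium, gave 1271 and 2238 (0.82) and 2457 and 3422 (0.48), both higher in 5ppase. On the same list of other receptors, Sdc1 (1133 and 725.1, -0.64) and Lrp4 (976.9 and 641.5, -0.61) were lower. Of the 9 compared genes of that list 4 were higher and 5 lower, with a median log2 ratio of -0.039. Among all compared genes 3955 were higher and 4306 lower. Sostdc1, an inhibitor of bone morphogenetic proteins and of Wnt signalling, gave 147.7 and 273.5 (0.89) and reached 208 in 5ppase only. Lgr5, a receptor for R-spondins and a Wnt target, gave 147.8 and 24.8 and was too dim to be compared.

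A list of 24 genes known as Wnt targets in other tissues showed no common direction. Of 20 on the array 14 were compared, 7 higher and 7 lower in 5ppase, with a median log2 ratio of -0.033. Those at least 2-fold apart were Ccn5, a matricellular protein first described as induced by Wnt signals, at 248.5 and 732.9 (1.56), and Apcdd1 at -1.01. Besides Axin2 and Lef1, which are also on this list, Myc (441.7 and 325.7, -0.44), a growth-promoting transcription factor, and the Frizzled ubiquitin ligase Znrf3 (376.1 and 288.3, -0.38) were lower. Jun was further down (3105 and 1950, -0.67), and its second probe set gave 2604 and 1426. The G1 cyclin Ccnd1 (19286 and 23567, 0.29) and Bambi (1831 and 3422, 0.90), a decoy receptor of the TGF-beta family, were higher. So was Cd44 (3095 and 4608, 0.57), with 2481 and 3631 at its second probe set. Myc, Znrf3, Jun, Ccnd1, Bambi and Cd44 were named after their values were seen.

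Genes through which Norrin acts in endothelium gave few signals that could be compared. Of 13 listed genes 5 were compared and 6 were under the floor on both arrays, beside 3388 of all 14218 genes under it. Among the 6 were the transcription factor Sox17 (9.6 and 10.8) and the claudin Cldn5 (22.9 and 30.9), named after their values were seen. The compared genes were Apcdd1, Fzd4, Tspan12, and the transporters Slc2a1 (0.16) and Slc7a1 (-0.065). Of 11 endothelial and pericyte markers on the array 7 were under the floor on both arrays, beside the same 3388 of 14218 genes. The 7 included Pecam1 at 8.7 and 22.5 and Kdr at 15.9 and 42.9. The pericyte markers Pdgfrb (1097 and 992, -0.15) and Cspg4 (261.5 and 629.5, 1.27), the latter also found on oligodendrocyte progenitors, were compared. A second Pdgfrb probe set gave 220.5 and 363.4 (0.72), so no direction can be given for Pdgfrb. Pecam1, Kdr, Pdgfrb and both transporters were named after their values were seen.

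**Figure D4:**
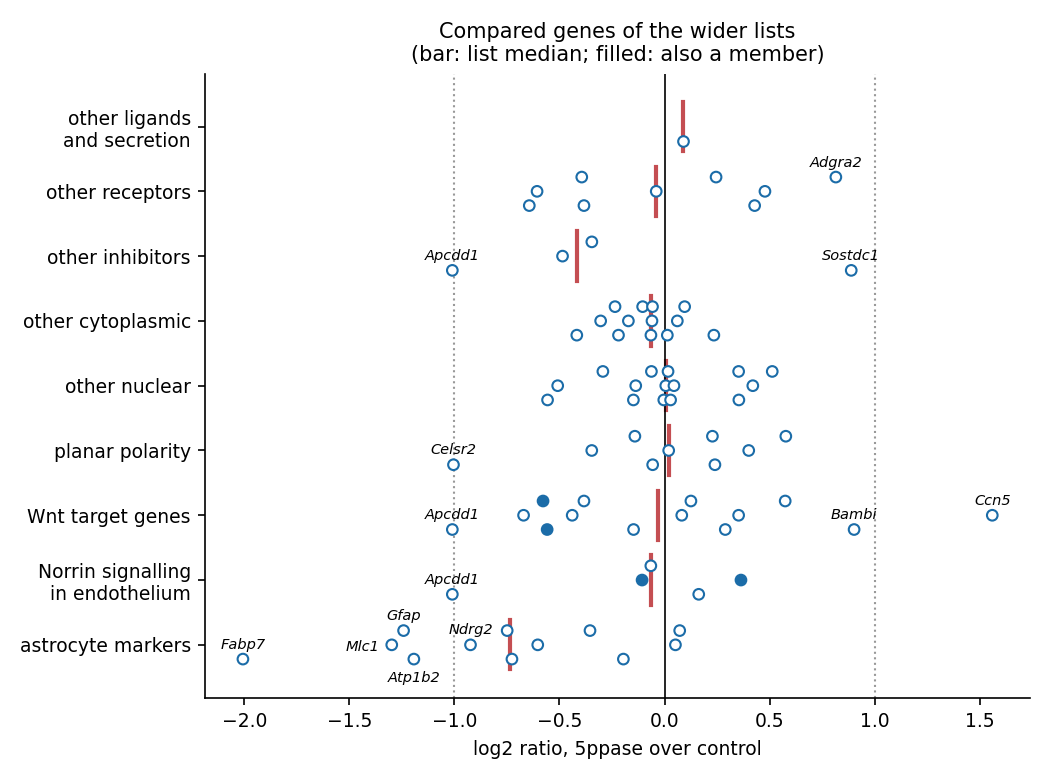
Log2 ratios of 5ppase over control of the compared genes of the wider Wnt lists, the target list, the endothelial Norrin list and the astrocyte markers, with a bar at each list's median, dotted lines at 2-fold and filled circles for genes that are also among the 40. The Wnt lists spread to both sides of 0, and 10 of the 12 compared astrocyte markers lie below it, as do 4306 of all 8261 compared genes.

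The cultures were labelled as astrocytes, and 12 of the 15 astrocyte markers on the array were compared, as were 8261 of all 14218 genes. The glutamate transporter Slc1a2 (24.1 and 25.7) was under the floor on both arrays. Aldh1l1 (62.9 and 49.8) and Aqp4 (432.3 and 25.1) were above it in control only. Of 8 compared fibroblast and meningeal markers 4 were higher and 4 lower. Their median log2 ratio was -0.0019 and their highest 0.20. Mgp, a secreted inhibitor of calcification, was at 1902 against 199 (-3.26), the lowest ratio of all compared genes, and the growth factor receptor Pdgfra was at 1018 against 644 (-0.66). The summed signal of this list, 159036 and 157693, rests mostly on a few bright genes such as collagens. Of 4 compared neuron markers 2 were higher, the tubulin regulator Stmn2 (3766 and 11066, 1.55) and the neuronal tubulin Tubb3 (87.9 and 290.2, 1.72), and 2 lower, the GABA synthesis enzyme Gad1 (998.1 and 422.2, -1.24) and the microtubule protein Map2 (-0.52). Their list summed to 6671 and 13094, mostly through Stmn2. The other 6 listed neuron markers were under the floor on both arrays, beside 3388 of all 14218 genes. The median log2 ratio of the 4 was 0.52, but -0.52 over 3 genes without probe sets named _x_at or _s_at. Of 8 microglial markers 1 was compared, Tmem119 (1078 and 2273, 1.08). Of the other microglial markers 4 were under the floor on both arrays, again beside 3388 of 14218 genes. A further 2 were above it on 1 array only and 1 was dim on both. Clu, Slc1a2, Aldh1l1, Pdgfra and Map2 were named after their values were seen. No marker was at 0 on either array. The part of these cell types in the values of Ndp, Wnt2, Sfrp1 and Dkk3 was not tested. The deposited signals lay between 0.1 and 49734, and their medians were 107.1 in control and 109.4 in 5ppase.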

How the data were processed

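RNA of 1 control and 1 5ppase culture, each grouped by its title, was hybridised to Affymetrix rat arrays. RNeasy extraction and biotin labelling are stated per the labels' protocols. The authors deposited 1 linear intensity per probe set and array. The submitters' processing notes name MAS5 for this step, and the sources used here give no version or settings. Both arrays have a trimmed mean of 500.2 (2% removed at each end), so 1 factor per array appears to have been set upstream, which leaves signal-dependent trends in place. The number of unused sample columns was 0.

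The platform annotation, which can be old, gave the names of probe sets, with current symbols by gene identifier from RefSeq (GRCr8). Of 31099 probe sets 20832 carried 1 symbol, 436 several and 9831 none, and 20764 of the first matched a current entry. Scaling both arrays to 1 trimmed mean changed values by less than rounding. Signals were then floored as given above. A ratio is 5ppase over control on the log2 scale. No detection calls were used, and the floor is a percentile and not a detection limit. Where a gene was bright on 1 array and under the floor on the other, only a bound against the floor was given.

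The members and gene lists were chosen with earlier results of these data known. Named were all members, and from the other lists genes at least 2-fold apart or bright on 1 array only (at most 4 per list), with Gfap and Aqp4. Others are marked as chosen after their values were seen. Since each group had 1 array, no test was made. The alternatives covered scaling, floor, pseudocount, choice of probe set and fold threshold. A further filter, a mean signal above the floor, was added after the data were seen. The steps were tested on simulated arrays. Python 3.11.15, pandas 2.3.3 and statsmodels 0.14.6 were used.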

Additional observations from a re-analysis of the deposited data

How the results depend on the processing

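No paired analysis was possible because each group has 1 array. Ndp, Sfrp1 and Wnt2 kept their direction in every alternative that gave them a value, with log2 ratios from -2.12 to -2.05 for Ndp, from -1.88 to -1.79 for Sfrp1 and from 0.99 to 1.08 for Wnt2. Under the 4 other scalings (as deposited, common median, quantile, loess) each of the 20 ratios moved by at most 0.10, and only Gsk3b changed sign. Of the 35 genes 20 had a second probe set, and 7 of these second probe sets passed the filter to be compared. With them Apc and Ctnnb1 changed sign. The mean of its probe sets gave -0.44 for Ctnnb1, since a dim probe set (21 and 5.7) then counts as much as the bright ones.

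The counts of genes at least 2-fold apart were less stable. With the floor at the 60th percentile and the bright limit at the 75th, 15 members were compared and none was 2-fold lower (0). Ndp and Sfrp1 then lie under the floor in 5ppase (Ndp at least 3.18-fold lower). Of the 5696 genes compared in that setting 122 were apart (2.14%). With a pseudocount of 6.4 and no filter 2 members were higher and 5 lower, adding Nkd1 upwards and the dim Dvl2, Wnt5b and Sfrp2 downwards, beside 2087 of all genes (14.7%). With second probe sets 7 members were compared, of which 0 were higher and 1 lower, beside 65 of 1883 compared genes apart (3.45%). The mean of probe sets left 1 lower among 14 compared members, since the dim probe sets of Sfrp1 took it under the floor in 5ppase. Of all genes compared that way 3.73% were apart. A 1.5-fold threshold gave 2 higher and 3 lower of 20 members, beside 885 of all compared genes (10.7%). A 3-fold threshold gave 0 higher and 2 lower, beside 53 of all compared genes (0.64%). Requiring only a mean signal above the floor was added after the data were seen. It gave 2 higher (Wnt2 and Nkd1) and 2 lower of 29 members, beside 414 of 10255 genes apart (4.04%). The absence of replicate arrays and the dim signal of 15 of 35 genes limit these values.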
